A study of Mus musculus with 8 samples.

Results

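Cytochrome P450 families 1, 2 and 3 were examined in primary mouse hepatocytes that lacked p16 and in hepatocytes that carried it. A gene belonged to the set when the array's annotation gave a row of values exactly 1 symbol made of Cyp1, Cyp2 or Cyp3, a subfamily letter and a number. Where a gene had several such rows, the row with the highest mean over 8 arrays stood for it. The rule gave 57 genes of 22180 genes with a row of their own on the array. They covered 56 of the 57 protein-coding genes that RefSeq names this way in mouse; the last of these, Cyp2c67, had only a row it shares with Cyp2c68, and Cyp2d13 is annotated by RefSeq as a transcribed pseudogene.

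The study compared 4 arrays of p16-/- hepatocytes (p16 KO) with 4 arrays of p16+/+ hepatocytes (p16 WT), both from littermate mice. The labels give neither the animals' age, strain and sex nor the allele. The p16 protein, made from the Cdkn2a locus, inhibits the cyclin D kinases and so restrains the cell cycle. Cells of both genotypes were isolated by collagenase perfusion and attached overnight with 25 nM dexamethasone and 100 nM insulin in 10% serum. From 16 h they spent 8 h in a low-glucose medium (1 mM glucose with 0.1% albumin) until RNA collection at 24 h. Dexamethasone, a synthetic glucocorticoid known to raise several P450 genes in cultured hepatocytes, was thus given to both groups. Arrays of a genotype are labelled as biological replicates; separate animals or preparations are not named, and the p-values rest on the spread among these arrays, which may be partly technical. All values are log2 expression levels normalised by the authors with RMA. A change is the mean of the p16 KO arrays minus the mean of the p16 WT arrays, and a gene was called higher or lower at an adjusted p under 0.05 (limma, two-sided, Benjamini-Hochberg over 15380 genes tested).

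Families 1, 2 and 3 hold most of the heme-containing oxygenases of the liver endoplasmic reticulum that oxidise drugs, environmental chemicals, steroids and fatty acids. Electrons reach them through NADPH-cytochrome P450 reductase and cytochrome b5, and the nuclear receptors CAR and PXR and the aryl hydrocarbon receptor (AHR) raise many of them when foreign compounds are present. In the liver lobule most are made near the central vein, where Cyp2e1 and Cyp1a2 are classic markers, while Cyp2f2 marks the periportal side. Cultured hepatocytes are known to lose P450 mRNA after plating.

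Of the 57 members, 36 passed the filter on dim rows (a mean over the 8 arrays above 3.32, the 40th percentile of the means of all 41345 rows on the array) and were tested. Among these 36, 20 were higher in p16 KO hepatocytes and 1 was lower, while 15 had no call. Of all genes tested, 7.02% were called higher and 6.76% were called lower. The median change was 0.39 over the 36 tested members and 0.26 over all 57, against -0.02 over all genes tested. In 22 of the 36 the p16 KO and p16 WT arrays did not overlap, 21 with p16 KO above and 1 with p16 KO below, against 20.2% of all genes tested. Of the 36, 10 were at least 2-fold higher in p16 KO, against 1.07% of all genes tested, and no member was at least 2-fold lower, against 0.709%.

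The filter could pass a gene through the genotype in which it is high. That was so for 3 members, Cyp3a25, Cyp3a59 and Cyp2c39, whose p16 WT means lay below the filter level, and 2 of them were called. Over the 33 members above the filter in both genotypes, 18 were higher, 1 was lower, 8 were at least 2-fold higher and the median change was 0.38. The 21 members that were not tested had means between 1.21 and 3.27. Their changes ran from -0.44 to 0.51 with a median of 0.06, 13 of them were positive, and in none of them did the genotypes stay apart. Just inside the filter were Cyp2c39 (mean 3.36) and Cyp1a1 (3.56), and just outside it were Cyp3a44 (3.27) and Cyp2d34 (3.26).

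**Figure D1:**
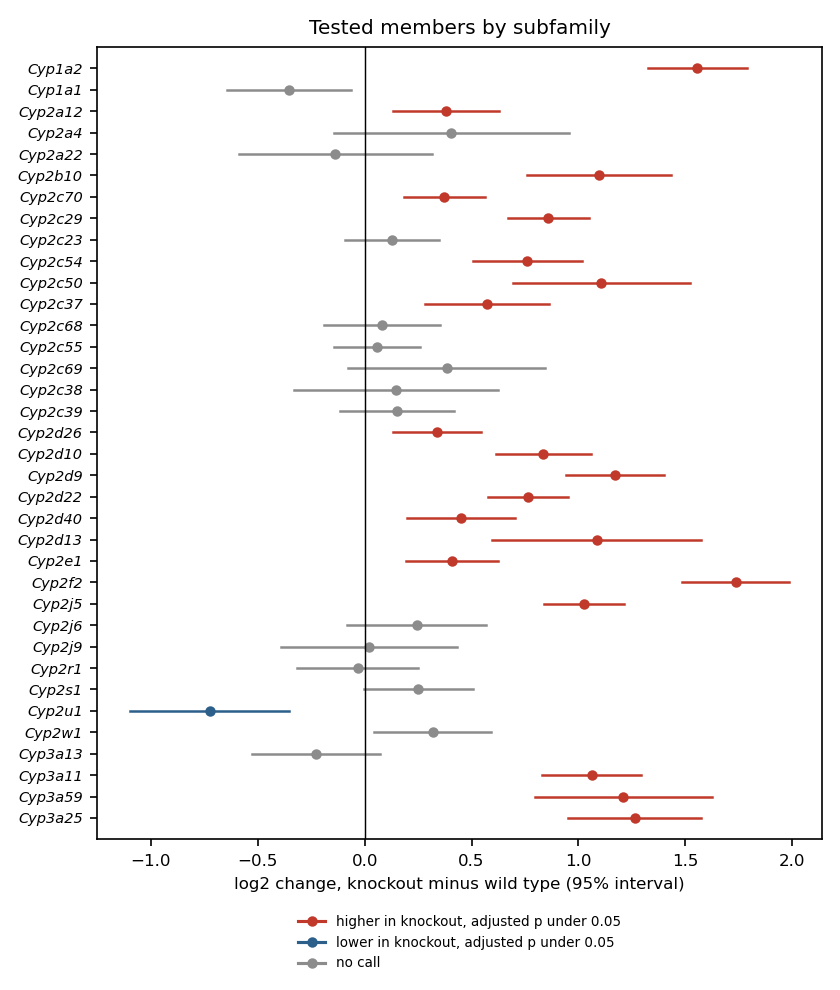
Change of each of the 36 tested members, p16 KO minus p16 WT on the log2 scale, with its 95% interval from limma, grouped by subfamily from Cyp1a at the top to Cyp3a at the bottom; colour gives the call at an adjusted p under 0.05. The 20 members called higher run from 0.34 (Cyp2d26) to 1.74 (Cyp2f2), and Cyp2u1 at -0.73 is the only member called lower.

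The Cyp1a subfamily has a pair of members in mouse, both tested, and they were not called alike. Cyp1a2, which oxidises caffeine and aromatic amines and is made constitutively in liver, read 9.31, 9.26, 9.28 and 8.96 on the p16 KO arrays, against 7.54, 7.66, 7.81 and 7.57 on the p16 WT arrays. The genotypes stood well apart, with a change of 1.56 (SE 0.11, adjusted p = 5.82e-06), or 2.94-fold. Cyp1a1, the inducible partner that is a textbook readout of AHR activity, read 3.22, 3.49, 3.31 and 3.53 in p16 KO, against 3.53, 3.57, 3.77 and 4.09 in p16 WT. The genotypes met at a shared value, the p16 KO mean of 3.39 lay close to the filter level, the change was -0.35 (SE 0.13, adjusted p = 0.109), and it was not called. Cyp1b1, the AHR-inducible enzyme of extrahepatic tissues, was too dim to be tested.

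Cyp1a2 and Cyp1a1 lie on chromosome 9 on opposite strands, with starts 13.958 kb apart in GRCm38.p6. Their upstream sequences are shown because these neighbours differed in their call; each is the 250 bases before the RefSeq start, 5′ to 3′ on the gene's own strand. Capitals mark TATAAA in both and, in Cyp1a1 alone, GCGTG, the core letters of the AHR response element. A match says nothing about binding, and whether these letters bear on the difference in call was not tested. Sequence further upstream of either gene was not read. The Cyp1a2 window is chr9:57683656-57683905 (minus strand) and the Cyp1a1 window is chr9:57697363-57697612 (plus strand).
Cyp1a2: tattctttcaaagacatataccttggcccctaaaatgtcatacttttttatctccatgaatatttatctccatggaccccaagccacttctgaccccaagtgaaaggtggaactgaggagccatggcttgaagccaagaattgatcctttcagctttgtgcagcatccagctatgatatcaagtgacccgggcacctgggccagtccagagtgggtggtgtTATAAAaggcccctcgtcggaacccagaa
Cyp1a1: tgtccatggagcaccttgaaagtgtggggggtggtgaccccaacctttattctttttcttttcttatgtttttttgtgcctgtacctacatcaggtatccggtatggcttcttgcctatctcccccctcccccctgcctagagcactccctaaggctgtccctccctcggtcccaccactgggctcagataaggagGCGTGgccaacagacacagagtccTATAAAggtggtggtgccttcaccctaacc
TATAAA begins 29 bases before the start of Cyp1a2 and 30 before that of Cyp1a1, and GCGTG begins 54 bases before the start of Cyp1a1.

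In the Cyp2a and Cyp2b subfamilies, which lie in a shared cluster on chromosome 7, 1 tested member of each was higher in p16 KO. Cyp2b10, the standard target of CAR, read 9.34, 9.04, 9.08 and 9.09 in p16 KO, against 8.49, 8.04, 7.95 and 7.69 in p16 WT. All p16 KO arrays were above all p16 WT arrays, and the change was 1.10 (SE 0.15, adjusted p = 0.000741). The other 4 Cyp2b members (Cyp2b9, Cyp2b13, Cyp2b19 and Cyp2b23) were not tested, and their changes ran from 0.01 to 0.31. Cyp2a12, a testosterone hydroxylase, read 11.37, 11.36, 11.30 and 11.17 in p16 KO, against 11.14, 10.80, 11.03 and 10.69 in p16 WT. The closest arrays of the genotypes nearly touched, and the change of 0.38 (SE 0.11, adjusted p = 0.0445) lost its call when any array but p16 KO replicate 4 and p16 WT replicate 1 was left out (adjusted p 0.0589 to 0.114). Cyp2a4 at 0.40 (adjusted p = 0.345) and Cyp2a22 at -0.14 (adjusted p = 0.734) had no call and overlapping arrays.

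Cyp2c is the largest subfamily, with 14 members of which 11 were tested; 5 were higher in p16 KO, none was lower, and all 11 changes were positive with a median of 0.37. These enzymes oxidise many drugs and turn arachidonic acid into epoxides. Cyp2c50 was higher by 1.11 (SE 0.19, adjusted p = 0.00257), Cyp2c29 by 0.86 (SE 0.09, adjusted p = 7e-05), Cyp2c54 by 0.76 (SE 0.12, adjusted p = 0.00129) and Cyp2c37 by 0.57 (SE 0.13, adjusted p = 0.0145). Cyp2c70, which makes muricholic acids from chenodeoxycholic acid in mice, read 12.20, 12.09, 12.15 and 12.00 in p16 KO, against 11.78, 11.64, 11.80 and 11.74 in p16 WT. The arrays did not overlap, at a change of 0.37 (SE 0.09, adjusted p = 0.0148); without p16 KO replicate 1 it was 0.34 with an adjusted p of 0.0512. The other 6 tested members had no call; Cyp2c23, an arachidonic acid epoxygenase, changed by 0.13 (adjusted p = 0.461), and Cyp2c38, Cyp2c39, Cyp2c55, Cyp2c68 and Cyp2c69 lay between 0.06 and 0.38. Rows of Cyp2c55 differed: the brighter row that stood for it changed by 0.06, while a dimmer row read 4.64, 4.05, 4.65 and 4.62 in p16 KO, against 3.32, 3.62, 3.48 and 3.70 in p16 WT. When its rows were averaged Cyp2c55 changed by 0.51 (adjusted p = 0.00665). The row shared by Cyp2c67 and Cyp2c68 changed by 0.22. Since the Cyp2c genes are close copies, signal from a neighbour in any of these rows cannot be told apart from a gene's own.

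All 6 tested members of Cyp2d, the relatives of the human debrisoquine hydroxylase CYP2D6, were higher in p16 KO, with a median change of 0.80. Cyp2d9, a testosterone hydroxylase that is higher in male than in female mouse liver, read 8.35, 8.37, 8.37 and 8.54 in p16 KO, against 7.12, 7.38, 7.39 and 7.07 in p16 WT. The change was 1.17 (SE 0.10, adjusted p = 2.84e-05) and every p16 KO array lay far above every p16 WT array. The pseudogene Cyp2d13 was higher by 1.08 (SE 0.22, adjusted p = 0.00754), Cyp2d10 by 0.84 (SE 0.10, adjusted p = 0.000269), Cyp2d22 by 0.76 (SE 0.08, adjusted p = 0.000145) and Cyp2d40 by 0.45 (SE 0.12, adjusted p = 0.0245). Cyp2d26 read 10.53, 10.43, 10.33 and 10.38 in p16 KO, against 10.01, 9.96, 10.24 and 10.12 in p16 WT, a change of 0.34 (SE 0.09, adjusted p = 0.0341). These last members were near the threshold. Cyp2d40 lost its call without p16 KO replicate 2 or without p16 WT replicate 2, 3 or 4 (adjusted p 0.0529 to 0.0661), and Cyp2d26 without p16 KO replicate 1 or 2 or p16 WT replicate 1, 2 or 4 (adjusted p 0.0583 to 0.102). The untested Cyp2d11, Cyp2d12 and Cyp2d34 changed by 0.05, -0.44 and -0.20. The Cyp2d genes are copies in a cluster too, so signal from a neighbour cannot be told apart from a gene's own.

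Cyp2e1 and Cyp2f2 are the only members of their subfamilies, and both were higher in p16 KO. Cyp2e1, which oxidises ethanol, acetone and paracetamol, read 12.04, 11.95, 11.90 and 11.83 in p16 KO, against 11.35, 11.45, 11.66 and 11.63 in p16 WT. The groups did not overlap, at a change of 0.41 (SE 0.10, adjusted p = 0.0182); the adjusted p was 0.0509 to 0.0600 without p16 KO replicate 1 or 2 or without p16 WT replicate 1 or 2. Cyp2f2, which activates naphthalene in mouse airway and liver, read 9.93, 9.88, 9.80 and 9.61 in p16 KO, against 7.82, 8.06, 8.25 and 8.15 in p16 WT. At 1.74 (SE 0.11, adjusted p = 5.01e-06), or 3.33-fold, this was the largest change among the 36 tested members. A dimmer row of Cyp2f2 changed by 0.94, with all p16 KO arrays above all p16 WT arrays.

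Of 3 tested members of Cyp2j, a family of fatty acid epoxygenases, only Cyp2j5 was called. It read 9.32, 9.24, 9.24 and 9.24 in p16 KO, against 8.35, 8.13, 8.27 and 8.19 in p16 WT, a change of 1.03 (SE 0.08, adjusted p = 1.86e-05). The arrays of each genotype lay close together. Cyp2j6 at 0.24 (adjusted p = 0.339) and Cyp2j9 at 0.02 (adjusted p = 0.959) had no call, and the other 4 members were not tested.

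Among the members that stand alone in their subfamilies, Cyp2u1, a hydroxylase of long-chain fatty acids, was lower in p16 KO. It read 5.56, 5.25, 5.62 and 5.22 in p16 KO, against 6.47, 5.99, 6.38 and 5.71 in p16 WT. Its highest p16 KO array lay just below its lowest p16 WT array, and the change was -0.73 (SE 0.17, adjusted p = 0.0153), so that p16 WT was 1.65-fold above p16 KO. Cyp2r1, the microsomal enzyme that hydroxylates vitamin D in liver, read 6.49, 6.27, 6.65 and 6.19 in p16 KO, against 6.61, 6.27, 6.58 and 6.27 in p16 WT, a change of -0.03 with a 95% interval of -0.32 to 0.25 (adjusted p = 0.908). Cyp2w1, an enzyme best known from fetal gut and colon tumours, read 4.02, 3.87, 3.80 and 4.35 in p16 KO, against 3.60, 3.79, 3.61 and 3.77 in p16 WT. Its arrays did not overlap but its change of 0.32 was not called (adjusted p = 0.125). Cyp2s1, an extrahepatic member, read 4.27, 4.49, 4.30 and 4.70 in p16 KO, against 4.18, 4.22, 4.02 and 4.34 in p16 WT, a change of 0.25 with overlapping arrays (adjusted p = 0.194). Cyp2g1 of the olfactory mucosa and Cyp2t4 were not tested.

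In Cyp3a, the subfamily of the main human drug-oxidising enzyme CYP3A4, 3 of 4 tested members were higher in p16 KO, with a median change of 1.14. Cyp3a25 read 4.24, 4.39, 4.63 and 4.05 in p16 KO, against 2.80, 3.32, 3.08 and 3.05 in p16 WT, a change of 1.26 (SE 0.14, adjusted p = 0.000154). Cyp3a59 read 4.79, 4.10, 4.34 and 4.02 in p16 KO, against 2.69, 3.07, 3.46 and 3.19 in p16 WT, a change of 1.21 (SE 0.19, adjusted p = 0.00149). Both genes were dim, with p16 WT means of 3.06 and 3.10 below the filter level, so they were tested only through their p16 KO arrays. They are adjacent copies on chromosome 5, so signal from either in the other's row cannot be told apart. Of the 2 Cyp3a members above the filter in both genotypes 1 was higher, Cyp3a11, and the median change of these 2 was 0.42; a filter at the 60th percentile also left 1 Cyp3a member called higher. Cyp3a11, the PXR target most used in mouse studies, was higher by 1.06 (SE 0.10, adjusted p = 6.29e-05), with means of 8.96 ± 0.12 in p16 KO and 7.89 ± 0.16 in p16 WT (SD, n = 4 each). Rows shared by Cyp3a11, Cyp3a41a, Cyp3a41b and Cyp3a44 changed by 1.02 and 0.96, and they cannot be assigned to any of these near-identical genes. Signal from the other genes in the row of Cyp3a11 cannot be told apart from its own either. Cyp3a13, which lies apart from the cluster on chromosome 5, read 8.93, 8.76, 8.76 and 8.44 in p16 KO, against 9.14, 8.70, 9.15 and 8.80 in p16 WT. Its arrays overlapped and its change of -0.23 (95% interval -0.53 to 0.07, adjusted p = 0.329) was not called.

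**Figure D2:**
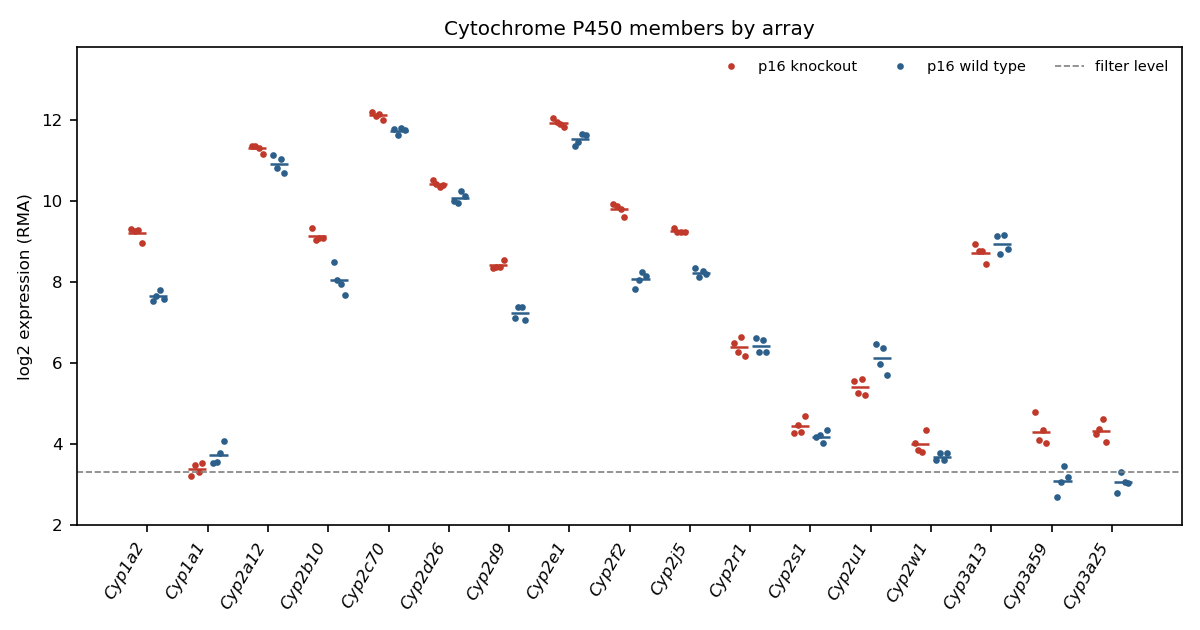
Log2 expression of 17 members on each array, p16 KO in red on the left and p16 WT in blue on the right of each gene, with bars at the group means; the dashed line is the filter level of 3.32. Cyp1a2, Cyp2b10, Cyp2d9, Cyp2f2, Cyp2j5, Cyp3a25 and Cyp3a59 were at least 2-fold higher in p16 KO, Cyp2u1 was lower, and Cyp1a1, Cyp2r1 and Cyp3a13 overlapped between the genotypes or met at a shared value.

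Upstream sequence was available for 49 of the 57 members, from 250 bases before to 50 after the RefSeq start, and was read in the same way for 27025 genes. On either strand, TATAAA stood in the windows of 24 members (49.0%), against 14.2% of all genes. The HNF4 letters CAAAGTCCA stood in 7 members (14.3%), against 0.477% of all, and the related CAAAGGTCA in 3 (6.12%), against 0.466%. AGGTCA, a nuclear receptor hexamer that is also contained in CAAAGGTCA, stood in 18 members (36.7%), against 16.0%, while AGTTCA stood in 5 (10.2%), against 14.0%. The C/EBP letters TTGCNNAA stood in 13 (26.5%), against 10.8% of all. GCGTG was found in 9 members (18.4%), against 32.5%, and neither GTTAATNAT (HNF1, 0.836% of all genes) nor TTGCGCAA (C/EBP, 0.185%, contained in TTGCNNAA) was found in any member. Since members of a cluster are copies of each other, their windows are not independent. These letters were not limited to called members. AGGTCA stood in 8 of 17 windows of members called higher, 2 of 14 without a call and 8 of 18 not tested. In the same order, CAAAGTCCA stood in 2, 2 and 3 of these windows and CAAAGGTCA in 2, 0 and 1. A match describes letters in this window and says nothing about binding.

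The 250 bases before the start of Cyp2f2, the member with the largest change, and of Cyp2c70 and Cyp3a25, which hold the HNF4 letters, are given on each gene's strand with the motif letters in capitals. The Cyp2f2 window is chr7:27119705-27119954 (plus strand), that of Cyp2c70 is chr19:40187287-40187536 (minus strand) and that of Cyp3a25 is chr5:146009619-146009868 (minus strand), all in GRCm38.p6.
Cyp2f2: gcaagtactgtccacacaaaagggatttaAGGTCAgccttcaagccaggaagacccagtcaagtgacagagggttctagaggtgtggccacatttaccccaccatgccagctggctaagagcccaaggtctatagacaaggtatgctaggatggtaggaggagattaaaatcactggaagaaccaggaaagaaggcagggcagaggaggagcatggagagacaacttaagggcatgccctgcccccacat
Cyp2c70: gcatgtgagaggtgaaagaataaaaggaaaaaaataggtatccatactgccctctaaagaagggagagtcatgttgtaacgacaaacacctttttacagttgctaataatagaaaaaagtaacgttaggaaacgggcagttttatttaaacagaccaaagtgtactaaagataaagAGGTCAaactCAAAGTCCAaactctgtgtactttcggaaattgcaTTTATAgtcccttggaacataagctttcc
Cyp3a25: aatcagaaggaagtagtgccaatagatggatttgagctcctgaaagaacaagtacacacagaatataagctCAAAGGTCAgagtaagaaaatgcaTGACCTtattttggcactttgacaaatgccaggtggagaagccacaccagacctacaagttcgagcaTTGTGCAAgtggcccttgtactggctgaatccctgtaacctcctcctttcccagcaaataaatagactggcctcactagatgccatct
The capitals are AGGTCA in Cyp2f2. In Cyp2c70 they are AGGTCA, then CAAAGTCCA and then TATAAA read on the other strand, 29 bases before the start. In Cyp3a25 they are CAAAGGTCA with AGGTCA inside it, AGGTCA read on the other strand, and TTGCNNAA read on the other strand.

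Most members lie in gene clusters, and tested neighbours were called together in some of them and not in others. On chromosome 15, RefSeq order places the 6 called Cyp2d genes around 3 dim, untested ones. On chromosome 19, Cyp2c37, Cyp2c54, Cyp2c50 and Cyp2c70 are neighbours and all were higher, as was Cyp2c29, while Cyp2c39, Cyp2c38 and Cyp2c68, which follow Cyp2c29, had no call. Among members of chromosome 7, the neighbours of Cyp2f2 are Cyp2a12, which changed by 0.38, and Cyp2t4, which was not tested. On chromosome 5 the called genes Cyp3a11, Cyp3a25 and Cyp3a59 are adjacent. Of the tested members of chromosome 4, only Cyp2j5, the last in order, was called.

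**Figure D3:**
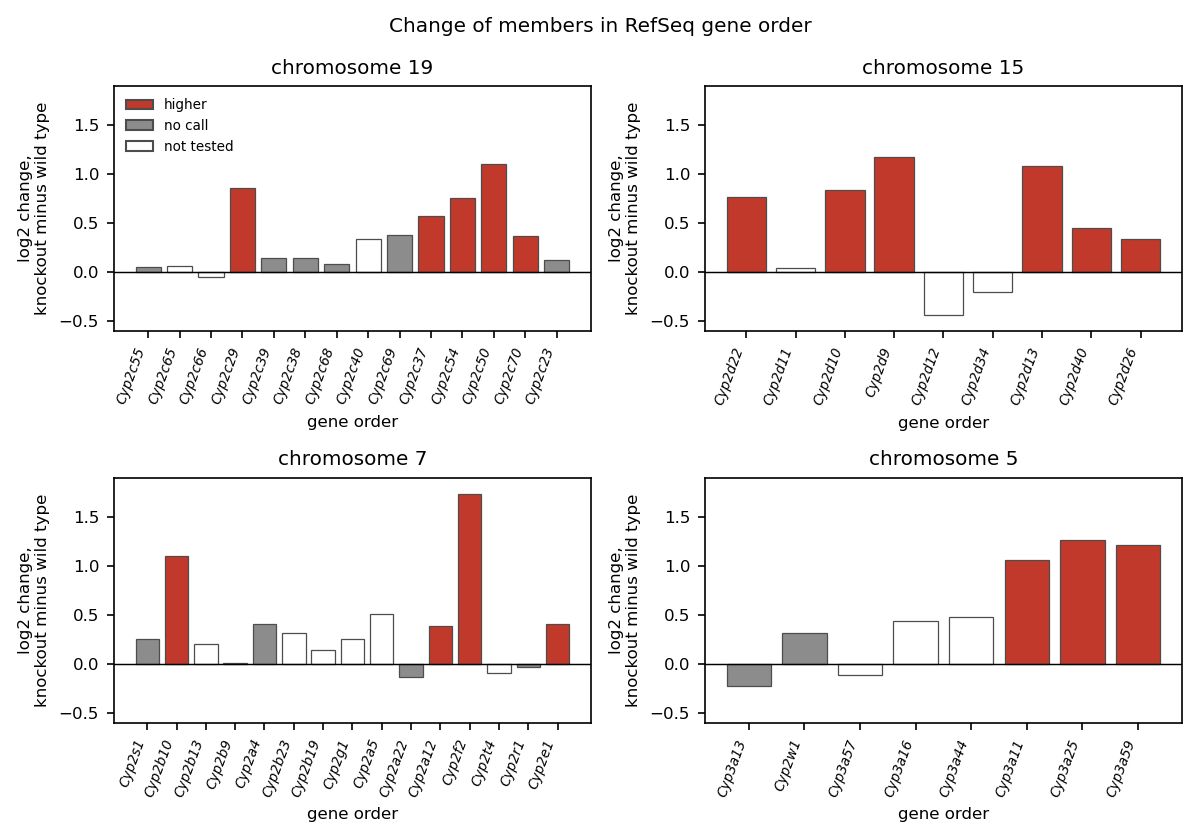
Log2 change (p16 KO minus p16 WT) of members in RefSeq gene order on chromosomes 19, 15, 7 and 5; the horizontal axis is rank and not distance, and open bars were not tested. Called members (red) stand beside uncalled (grey) and untested ones, with the tallest bars at Cyp2f2 (1.74) and Cyp3a25 (1.26).

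Liver zonation and sex cut across the members. All 7 tested members that are typically pericentral (Cyp1a2, Cyp2e1, Cyp2c29, Cyp2c37, Cyp2c50, Cyp2c54 and Cyp3a11) were higher in p16 KO, with a median of 0.86, and so was the periportal Cyp2f2; the pericentral Cyp2a5 was too dim to be tested. Zonated genes outside the P450 families were counted as well. Of 9 tested pericentral genes 4 were higher, none lower and 5 without a call, with a median of 0.13, the higher ones including Gulo (1.34, SE 0.10, adjusted p = 1.12e-05), which makes vitamin C, and glutamine synthetase Glul (0.59, SE 0.10, adjusted p = 0.00191), which lost its call when its rows were averaged (0.24, adjusted p = 0.190). Of 7 tested periportal genes 5 were higher and none lower, with a median of 1.15, among them the urea cycle genes Arg1 (2.69, SE 0.18) and Cps1 (1.32, SE 0.10). Ass1, also of the urea cycle, had no call (0.12, adjusted p = 0.794), and neither had Cdh1 (0.31, adjusted p = 0.0587). Of 8 members listed as higher in female mouse liver, only 3 passed the filter and were tested. Of these 3, Cyp2b10 was higher in p16 KO and Cyp2a4 and Cyp2c69 had no call. The male-biased Cyp2d9 was higher. On every array Xist read between 2.59 and 3.03, below the filter level, and Eif2s3y of the Y chromosome between 7.19 and 8.06.

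Genes that supply or regulate these enzymes were taken from lists drawn up by role. None of 4 tested genes listed under electron supply (Cyb5a, Cyb5b, Cyb5r3 and Pgrmc1) was called, with changes from -0.29 to 0.18. Not every gene of this list is itself an electron donor to these enzymes. The P450 reductase Por was not analysed here. Of 11 tested genes of heme turnover 3 were higher and 1 lower: heme oxygenase Hmox1 by 1.02 (SE 0.15, adjusted p = 0.000978), the rate-limiting synthase Alas1 by 0.47 (SE 0.10, adjusted p = 0.0103) and Alad by 0.36 (SE 0.09, adjusted p = 0.0252), with Blvrb at -0.43 (SE 0.10, adjusted p = 0.0192; 0.0590 without p16 KO replicate 2 and 0.0615 without p16 WT replicate 1). Of 9 tested receptors that induce P450 genes 2 were higher and none lower. PXR (Nr1i2) averaged 6.59 ± 0.29 in p16 KO and 5.37 ± 0.24 in p16 WT (SD, n = 4 each), a change of 1.22 (SE 0.16, adjusted p = 0.000422), and the AHR partner Arnt changed by 0.38 (SE 0.10, adjusted p = 0.0211; 0.0521 to 0.0630 without p16 KO replicate 1 or 3 or p16 WT replicate 2 or 4). CAR (Nr1i3) at 0.30 (adjusted p = 0.148) and Ahr at 0.11 (adjusted p = 0.636) had no call.

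Among 16 tested transcription factors listed for hepatocytes, 4 were higher in p16 KO and 2 were lower. Hnf4a, a receptor that many liver genes require, averaged 8.13 ± 0.12 in p16 KO and 7.20 ± 0.21 in p16 WT (SD, n = 4 each), a change of 0.93 (SE 0.12, adjusted p = 0.000341). Foxa3 changed by 0.63, Prox1 by 0.56 and Hlf by 0.34, against -1.06 for Nr2f2 and -0.40 for Nfia. Not every gene of this list is confined to hepatocytes, and which cells gave the falls of Nr2f2 and Nfia was not tested. Of 3 other AHR targets tested, Tiparp was higher by 0.63 (SE 0.16, adjusted p = 0.0241) and Nqo1 (-0.71, SE 0.12, adjusted p = 0.00218) and Nfe2l2 (-0.41, SE 0.09, adjusted p = 0.00843) were lower. Tiparp lost its call without any array but p16 KO replicate 4 and p16 WT replicate 4 (adjusted p 0.0536 to 0.0693), and when its rows were averaged its change was 0.31 (adjusted p = 0.0878), which left none of these targets higher. Of 9 tested genes of growth hormone signalling, which sets sex-biased P450 expression, Ghr (0.73, SE 0.11, adjusted p = 0.00109) and Stat5b (0.53, SE 0.11, adjusted p = 0.00646) were higher and none was lower.

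Other enzyme families gave a comparison. Of 31 tested UGT, SULT and GST genes, which conjugate the products of P450 enzymes, 16 were higher in p16 KO and 2 were lower, with a median of 0.39. In the Cyp4 family of fatty acid omega-hydroxylases, 4 of 14 tested genes were higher and 3 were lower, with a median of 0.17. Cyp4f15, called higher, had a p16 WT mean of 3.12, and Cyp4f16, called lower, a p16 KO mean of 3.14. Both means lay below the filter level, so these genes were tested only through the genotype where they were high. Of 6 tested P450 genes of sterol and bile acid synthesis, Cyp27a1 (0.88, SE 0.09, adjusted p = 5.6e-05) and Cyp7b1 (0.79, SE 0.09, adjusted p = 0.000187) were higher and none was lower. The differences between these families and the members were not tested.

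Averaged over the 36 tested members, the arrays read between 7.20 and 7.31 in p16 KO, against 6.67 to 6.86 in p16 WT, and the ranges were apart. These members include Cyp3a25, Cyp3a59 and Cyp2c39, which passed the filter only through their p16 KO arrays. Array by array, the highest value of a gene among the 36 fell in p16 KO for 30 members, most often in p16 KO replicate 1 (15), and the lowest fell in p16 WT for 29. Markers of other liver cells differed between the genotypes as well. All 12 sinusoidal endothelial markers were lower in p16 KO, with array means of 4.77 to 4.95 in p16 KO, against 6.02 to 6.22 in p16 WT. Of 12 tested Kupffer cell markers 10 were lower and 1, Cd68, was higher, with array means of 4.49 to 4.63 in p16 KO, against 5.32 to 5.43 in p16 WT; Ptprc and Timd4 were below the filter. Of 11 tested stellate cell and fibroblast markers 5 were lower and 1, Reln, was higher, with array means of 4.52 to 4.67 in p16 KO, against 5.15 to 5.22 in p16 WT; Lum was below the filter. None of 4 tested cholangiocyte markers was called, with array means of 5.06 to 5.43 in p16 KO, against 5.30 to 5.49 in p16 WT, and Cftr and Sctr were below the filter. Of 17 hepatocyte markers 8 were higher and none lower, with a median change of 0.22 and the largest, 1.39, at Asgr1. Their array means were 11.04 to 11.13 in p16 KO, against 10.71 to 10.80 in p16 WT. Albumin (Alb) changed by 0.03 and hemopexin (Hpx) by -0.0019. They were the markers of this list with the highest means, near the top of the array's range. Clec4g, Vsig4 and Cd5l, all called lower, had p16 KO means of 3.28, 3.00 and 3.13. These lay below the filter level, so the genes were tested only through their p16 WT arrays. The part of these markers in the members' changes was not tested. In such bulk RNA fewer cells of a type and less RNA per cell cannot be told apart.

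**Figure D4:**
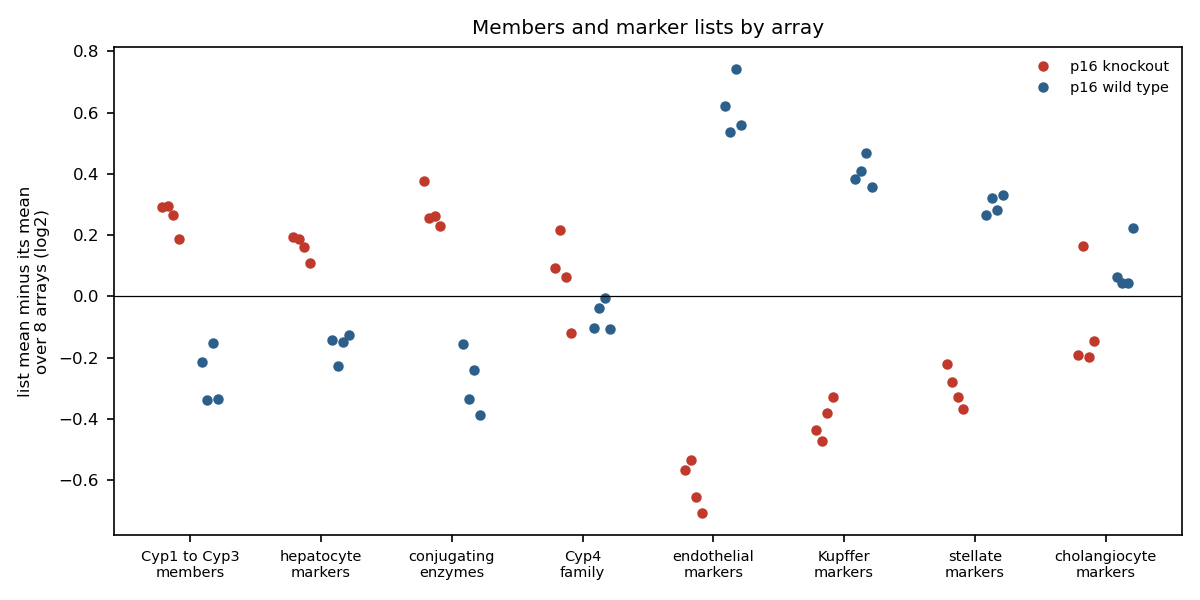
Mean log2 level of the tested members and of 7 other gene lists on each array, shown as the deviation from that list's mean over 8 arrays, p16 KO in red on the left and p16 WT in blue on the right. The members, the hepatocyte markers and the conjugating enzymes were higher on all p16 KO arrays than on any p16 WT array, and endothelial, Kupffer and stellate markers were lower on all of them. Of the tested members, 3 passed the filter only through their p16 KO arrays.

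**Figure D5:**
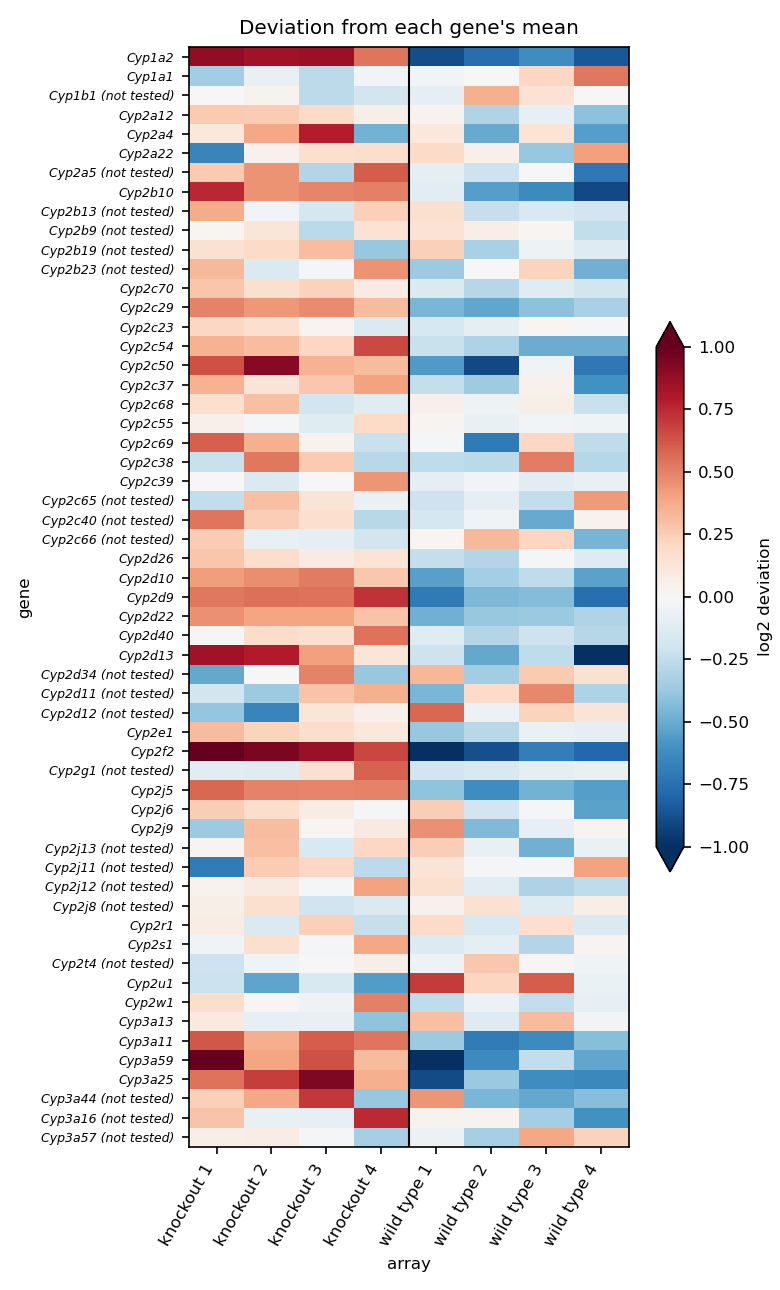
Deviation of each of the 57 members from its own mean over 8 arrays, on the log2 scale and cut at 1 in either direction, with the p16 KO arrays left of the line and the p16 WT arrays right of it, grouped by subfamily. The 21 untested genes show no common direction (13 positive and 8 negative changes), while tested genes such as Cyp1a2, Cyp2f2 and the Cyp2d group are red on the left and blue on the right.

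The arrays as a whole correlated at 0.985 to 0.993 within a genotype and at 0.973 to 0.983 between genotypes. Over all genes tested, 1080 were higher and 1039 were lower in p16 KO. Cdkn2a itself averaged 4.53 ± 0.31 in p16 KO and 4.53 ± 0.28 in p16 WT (SD, n = 4 each; exact permutation test, two-sided p = 1, with 0.0286 the smallest p this design allows). Whether its probes lie in the deleted part is not known from the sources used here, so this value does not check the labels.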

How the data were processed

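RNA of 8 cultures of mouse primary hepatocytes, 4 p16 KO and 4 p16 WT, was read on 1-colour Affymetrix arrays. The deposited values are log2 expression levels per array row, summarised by the authors with RMA in oligo, per the submitters' processing notes, with no version given there. The array gives no read depth, so its number of arrays limits the precision.

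Of 41345 rows, 23521 had 1 symbol in the platform annotation, 1814 had several and 16010 had none; 23328 of the named rows matched RefSeq genes of GRCm38.p6. The row with the highest mean stood for each of 22180 genes. The 15380 genes whose mean over the arrays passed the 40th percentile of the means of all 41345 rows were fitted with limma 3.58.1 (lmFit and eBayes, R 4.3.3) without covariates, since the labels give no batch or date. The threshold was an adjusted p under 0.05. The fit was tested on simulated data. Cdkn2a was tested by exact permutation. Promoter letters were searched on both strands in RefSeq windows with Python 3.11.15. Values on each array are given for every tested member of subfamilies 1a, 1b, 2e, 2f and 2r, for the tested member with the highest mean in each other subfamily, and for the 5 called members with the largest change in each direction. The members and gene lists were chosen with earlier results of these data known. Alternatives covered the filter, the choice of row, normalisation, the variance model, the threshold, a replicate block and leaving out each array. The restriction to members above the filter in both genotypes was added after seeing the data.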

Additional observations from a re-analysis of the deposited data

Results flagged for a closer look

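In 7 of 136 groups of 4 arrays examined for the named genes, 1 array stood far from the other 3 by Dixon's test at the 95% level; chance gives about 1 in 20, or 6.8 here. Cyp1a2 read 8.96 on p16 KO replicate 4, below 9.26 to 9.31 on the other p16 KO arrays, and that array still lay above all p16 WT arrays. Cyp2d9 read 8.54 on p16 KO replicate 4, above 8.35 to 8.37 on the others, and Cyp2j5 read 9.32 on p16 KO replicate 1, above 9.24 on the others. These 3 genes kept their call without any single array. Among members without a call, Cyp2a22 read 4.31 on p16 KO replicate 1, below 5.01 to 5.15, and Cyp2c38 read 4.27 on p16 WT replicate 3, above 3.47 to 3.50. Tiparp read 7.26 on p16 KO replicate 4, below 7.67 to 7.74, and Lyve1 read 7.90 on p16 WT replicate 2, below 8.09 to 8.12.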

How the results depend on the processing

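The number of members higher in p16 KO was 20 and lay between 16 and 21 over the alternative fits (16 to 20 when an array was left out), and it was 14 both at an adjusted p under 0.01 and with a 1.5-fold minimum. Of the 21 called members, 14 were called in all 18 alternative fits at the 0.05 threshold, and Cyp3a25 and Cyp3a59 in the 17 fits they entered, since the 60th percentile filter drops both. Cyp2a12 and Cyp2d26 each lost their call in 8 of the 18 fits, Cyp2d40 and Cyp2e1 in 4 each and Cyp2c70 in 1, with adjusted p up to 0.114. Without the filter on dim genes, the adjusted p was 0.0804 for Cyp2a12 and 0.0660 for Cyp2d26. The single lower member, Cyp2u1, was lost only at 0.01, which left 0. Genes called in all were 2119, against 1071 at 0.01, 895 with the 1.5-fold minimum and 1448 to 2165 when an array was left out. The median change of tested members was 0.39 and fell to 0.26 without the filter, where all 57 members count. The labels do not state that arrays of the same number are pairs, so the numbers were not taken as pairs. Deviations of arrays of the same number correlated at 0.061, 0.020, 0.263 and 0.207, with 2 of 4 p16 KO arrays closest to their own number. These values do not decide whether the arrays were paired. With a replicate block 2215 genes were called and 19 members were higher. Cyp2d26 (adjusted p = 0.0632) and Tiparp (adjusted p = 0.0501) then lost their call. Changes near 0 turned in sign: Hpx was 0.0049 with cyclic loess, 0.0084 with median centring and 0.0037 with array weights, and Cyp2j9 was -0.018 with array weights. Leaving out arrays gave -0.29 to 0.059 for Cyp2a22, -0.0039 to 0.34 for Cyp2c38, -0.0054 to 0.16 for Cyp2c68, -0.12 to 0.18 for Cyp2j9, -0.12 to 0.039 for Cyp2r1, -0.014 to 0.015 for Hpx and -0.12 to 0.093 for Cdkn2a, none of them called.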
